A study of Mus musculus with 6 samples.

Results

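A pair of chemical inducers, 4-hydroxytamoxifen (4OHT) and Shld1, were considered together: the 4 arrays of cells given either agent were set against the 2 arrays of untreated cells, and the comparison asked which genes lay on the same side of both untreated arrays on all 4 inducer arrays. The arrays were chosen by their titles, and they are all 6 arrays of the series. Each was a single-colour Affymetrix array of total RNA from RW4 cells, a mouse embryonic stem cell line. The untreated group (2 arrays) is labelled WT with no agent, the 4OHT group (2 arrays) is labelled ERT2 and received 1 µM of the drug, and the Shld1 group (2 arrays) is labelled FKBP and received Shld1 at 1 µM. The medium of every group held newborn calf serum, fetal bovine serum and leukemia inhibitory factor, and the dishes were coated with gelatin. How long the cells were treated is not stated in the labels. The labels do not say whether the ERT2 and FKBP cells carried a fusion protein. If they did, the agent and the cell line cannot be told apart. The labels call the arrays of a group duplicates without naming separate cultures, so a p-value here measures only how these samples vary, which may be technical.

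Both agents are used as chemical switches. 4OHT binds the estrogen receptor and releases proteins fused to the mutated ERT2 receptor domain from the chaperones that hold them in the cytoplasm, while Shld1 binds a destabilised FKBP12 domain and keeps its fusion partner from being degraded. The agents differ in structure and in target. Embryonic stem cells are kept undifferentiated by Pou5f1, Sox2 and Nanog, transcription factors that hold each other's genes active, and they rely strongly on glycolysis.

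The stem cell identity of the arrays was checked against 8 marker genes, all of which lay well above background, with mean log2 signals from 8.74 to 12.07. Pou5f1 read 10.36 and 10.43 on the untreated arrays, 10.38 and 10.45 with 4OHT, and 10.38 and 10.23 with Shld1. Its pooled difference, inducers minus untreated, was -0.04 on the log2 scale (SE 0.12, 95% interval -0.30 to 0.22). Sox2 differed by 0.02 (95% interval -0.24 to 0.28) and Nanog by -0.06 (95% interval -0.35 to 0.23). The signs of these 3 values turned when single arrays were left out. Klf4, a factor of naive pluripotency, differed by 0.09 (95% interval -0.22 to 0.40). Among the direct partners of the drugs, Fkbp1a, which encodes FKBP12, was at 7.90 ± 0.04 (SD, n = 2) in untreated cells and 7.90 ± 0.10 (SD, n = 4) with inducers. Esr1, the gene of estrogen receptor alpha, was close to background at 3.99 ± 0.02 (n = 2) and 4.07 ± 0.22 (n = 4). Esr2 was not above background in either group.

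No probe set passed the test. Limma called 0 of 21789 probe sets with 1 gene symbol after Benjamini-Hochberg adjustment (0%; smallest adjusted p = 0.993), while an unadjusted p under 0.05 was found for 880 (4.04%), of which 490 were higher (2.25%) and 390 lower (1.79%). With arrays centred on their 75th percentile, 571 were higher and 257 lower. Without untreated replicate 1 or 2 the number was 581 or 527, and without Shld1 replicate 1 it was 1392. For single probe sets, the 95% interval stayed inside a 2-fold range for 21673 probe sets (99.5%) and inside 1.5-fold for 18346 (84.2%), without adjustment for their number. No pooled difference above 2-fold was higher with inducers, and 1 was lower (0.00459%). An exact permutation test of 4 arrays against 2 has 15 arrangements and cannot give a two-sided p below 0.133, so none was used for single probe sets. A comparison of 4OHT with Shld1 in the same arrays also gave 0 calls (limma, Benjamini-Hochberg), with 1233 probe sets at an unadjusted p under 0.05 (5.66%).

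The 4 inducer arrays lay wholly above or wholly below both untreated arrays at 2788 of the 21789 probe sets (12.8%). Of these, 1294 were higher (5.94%) and 1494 lower (6.86%). Centring on the 75th percentile turned this split to 1644 higher and 1086 lower. With the 6 arrays in random order, a probe set would be separated in either direction with a probability of 0.133. The 12.8% found is no more than that. The number separated depends on how many arrays must be kept apart: it was 7693 or 6951 without untreated replicate 1 or 2, 4540 without 4OHT replicate 2 and 5421 without Shld1 replicate 1. Most gaps were small. The median distance between the nearest inducer and untreated arrays was 0.06 among the higher and -0.05 among the lower probe sets. Gaps over 0.1 were found at 732 probe sets (3.36%), 394 higher (1.81%) and 338 lower (1.55%). Gaps over 0.3 were found at 37 (0.17%), 22 higher (0.101%) and 15 lower (0.0688%), and gaps over 0.5 at 2 (0.00918%), 1 in each direction (0.00459%). Of the 22 higher, 9 were above background, and of the 15 lower, 13 were. Background was taken as a log2 signal of 3.71, the 95th percentile of mean signal among olfactory receptor genes. Above it, 4.47% of 14286 probe sets were separated higher and 8.69% lower, and below it 8.73% of 7503 were higher and 3.37% lower.

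**Figure D1:**
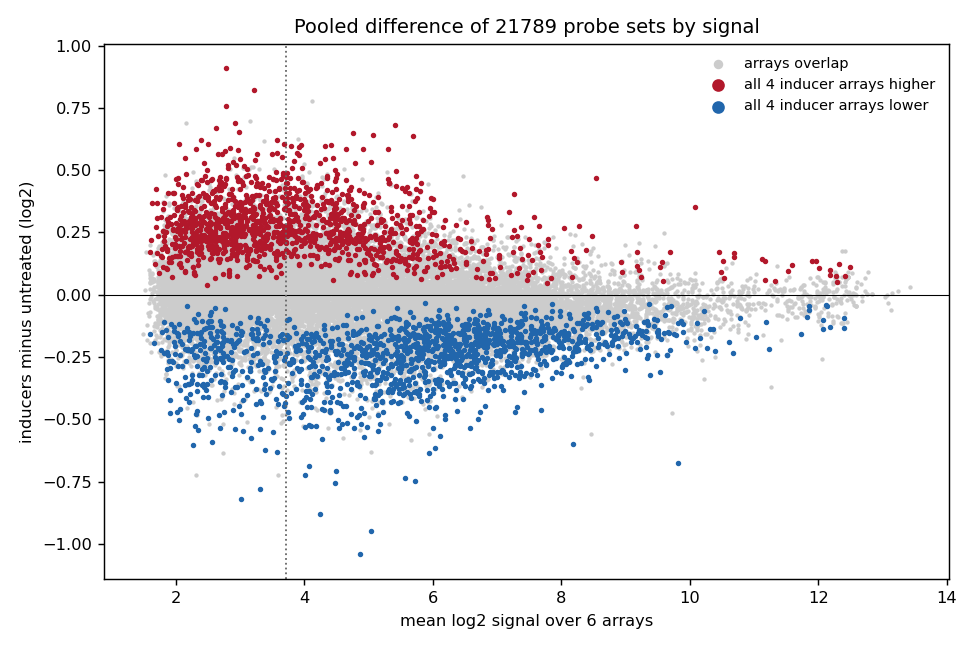
Each point is 1 of 21789 probe sets, with its mean log2 signal over 6 arrays on the x axis and the pooled log2 difference, inducers minus untreated, on the y axis; red and blue points mark the 1294 and 1494 probe sets whose 4 inducer arrays were all higher or all lower than both untreated arrays, and the dotted line marks the background level of 3.71. Red points gather at low signal and blue points at high signal.

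Higher and lower probe sets came from different parts of the signal range. The median signal was 3.60 among those higher with inducers and 5.88 among those lower, against 4.63 for all. When probe sets were divided by signal into 10 bins, 8.58% of the dimmest bin were higher and 3.81% lower, and in the brightest bin 2.16% were higher and 11.1% lower. Signals were less widely spread on 4OHT replicate 1 and Shld1 replicate 2, called the narrower arrays below, with SDs over all 35556 probe sets of 2.29 and 2.24, against 2.33 to 2.35 on the other 4 arrays. In bin 9 their median differences from untreated were -0.14 and -0.12, while 4OHT replicate 2 and Shld1 replicate 1 were at -0.01 and 0.02. With both narrower arrays left out, 2 inducer arrays were compared with 2 untreated arrays, and among probe sets brighter than the median 15.5% were higher and 14.2% lower. With all 6 arrays these shares were 3.34% and 9.79%. After quantile normalization of all 6 arrays they were 5.31% and 7.44%. Gene groups are therefore given with their values on each array.

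**Figure D2:**
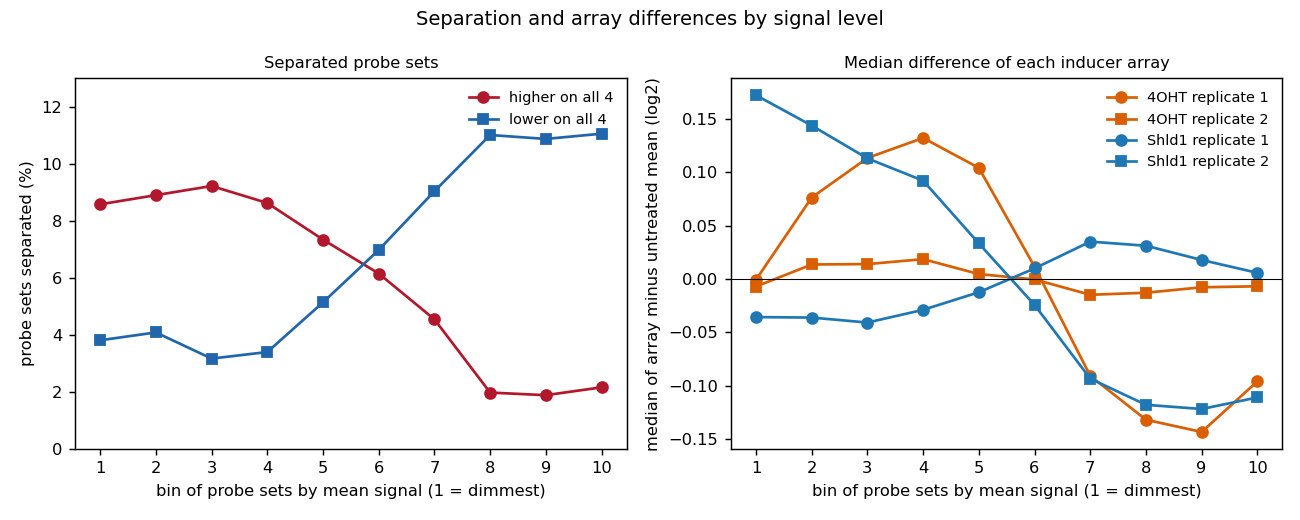
The left panel plots the percentage of probe sets whose 4 inducer arrays were all higher (red) or all lower (blue) than both untreated arrays, by bin of mean signal; the right panel plots, for each inducer array, the median log2 difference from the untreated mean in the same bins. The share of lower probe sets climbs from 3.81% in the dimmest to 11.1% in the brightest bin, and the lines of 4OHT replicate 1 and Shld1 replicate 2 run from positive or near 0 to negative while the other inducer arrays stay near 0.

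Nova2 had the smallest p among the genes above background that were higher on all 4 inducer arrays. The gene, which encodes a splicing factor of neurons, read 5.01 and 4.92 on the untreated arrays, 5.71 and 5.68 with 4OHT, and 5.79 and 5.41 with Shld1. All inducer arrays lay at least 0.40 above the higher untreated array. Its pooled difference was 0.68 (SE 0.13, 95% interval 0.38 to 0.98; limma, unadjusted p = 0.000499, adjusted p = 0.993), a 1.61-fold higher signal. Of the other genes in this direction, Tfap2a, a transcription factor of neural crest and surface ectoderm, read 3.53 and 3.48 untreated, 4.18 and 4.13 with 4OHT, and 4.08 and 3.91 with Shld1. Its difference was 0.57 (SE 0.12), and its untreated signal was below background, so it passed the background filter only through the inducer group. Sox10, a neural crest and glial factor, read 3.98 and 4.06 untreated, 4.92 and 4.54 with 4OHT, and 4.37 and 4.67 with Shld1, a difference of 0.60 (SE 0.16). For Nova2, Tfap2a and Sox10 the groups did not overlap, and the agents differed from each other by 0.10 (SE 0.16), 0.16 (SE 0.14) and 0.21 (SE 0.18).

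Vwa3b, with a gap of 0.41, read 4.20 and 4.45 untreated, 5.19 and 4.86 with 4OHT, and 4.95 and 4.90 with Shld1. This is 1 of its 8 probe sets, of which 2 were separated, both higher, and the median difference over the 8 was 0.18. Il4ra, the receptor chain for interleukin 4, differed by 0.44 (SE 0.12) and was almost the same on the inducer arrays, which ran from 4.26 to 4.43 against 3.89 and 3.91 untreated. Oas1c, a member of the oligoadenylate synthetase family, differed by 0.47 (SE 0.12), Slc4a9, a bicarbonate transporter, by 0.45 (SE 0.12), and the synaptic adhesion gene Lrfn3 by 0.59 (SE 0.15). The uncharacterised gene 1700024G13Rik differed by 0.47 and the pseudogene Ppp1r2-ps9 by 0.48. Oas1c, Lrfn3, 1700024G13Rik and Ppp1r2-ps9 were below background in untreated cells.

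**Figure D3:**
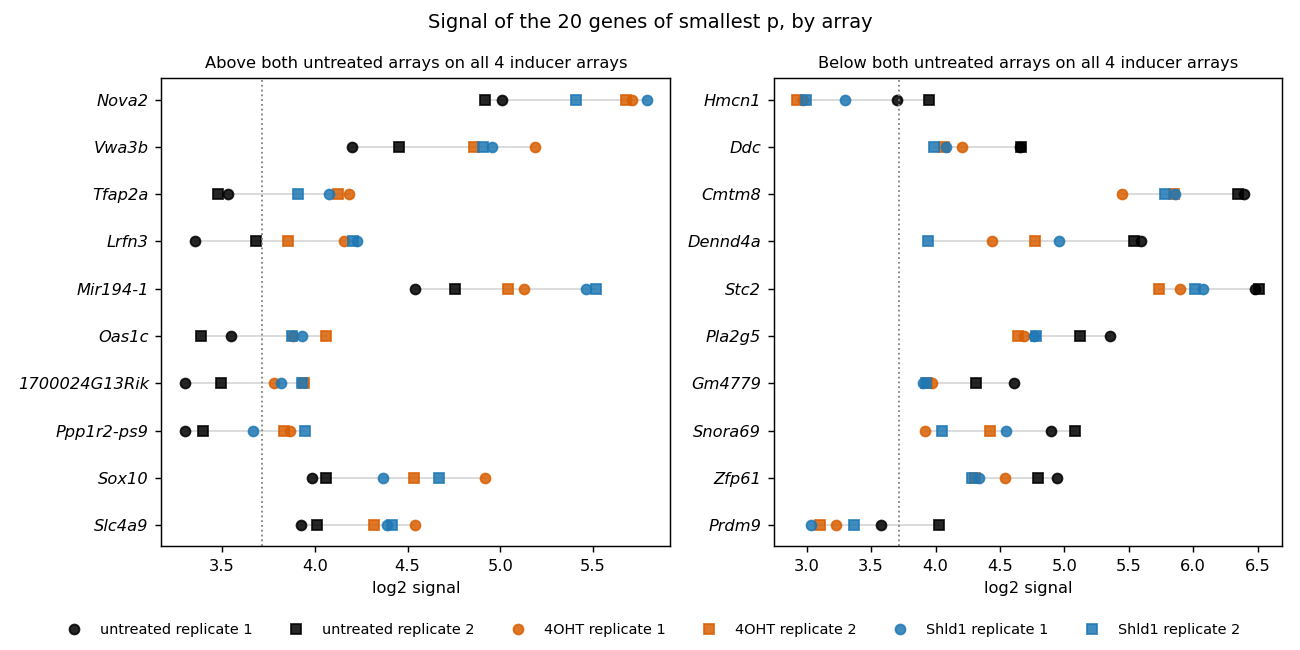
The log2 signal of the 10 genes of smallest p in each direction, among those above background in at least 1 group whose inducer arrays did not overlap the untreated arrays, is plotted by array; black, orange and blue mark untreated, 4OHT and Shld1, circles and squares mark replicates 1 and 2, and the dotted line marks the background level of 3.71. In each row the black points stand apart from the others, by 0.40 for Nova2 and by 0.59 for Dennd4a.

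Dennd4a had the widest gap of any probe set. The gene encodes an activator of the Rab10 GTPase, and it is also known as a binding partner of the c-Myc promoter. It read 5.59 and 5.54 on the untreated arrays, 4.44 and 4.77 with 4OHT, and 4.96 and 3.94 with Shld1, a difference of -1.04 (SE 0.24, 95% interval -1.58 to -0.51; limma, unadjusted p = 0.00144, adjusted p = 0.993). The nearest arrays were 0.59 apart, although the inducer arrays themselves were spread widely (4.53 ± 0.45, SD, n = 4). Of its 9 probe sets, 8 were lower with inducers and 5 were separated, all lower, with a median difference of -0.39 over the 9. Hmcn1, a large extracellular matrix protein, had the smallest p of all, at a difference of -0.78 (SE 0.14). This probe set averaged 3.83 untreated and 3.05 with inducers, so it was above background only in untreated cells. The probe sets of Hmcn1 did not go one way: of 77, 7 were separated higher and 6 lower, and the median difference was -0.02.

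The other lower genes above background included enzymes and secreted proteins. Stc2, which encodes the secreted glycoprotein stanniocalcin 2 and is a known target of both estrogen and stress signalling, read 6.48 and 6.51 untreated, 5.89 and 5.73 with 4OHT, and 6.08 and 6.02 with Shld1. The difference was -0.57 (SE 0.13, 95% interval -0.86 to -0.28), and the Shld1 arrays lay below both untreated arrays as the 4OHT arrays did. Ddc, aromatic amino acid decarboxylase, which makes dopamine and serotonin, read 4.66 on both untreated arrays and 4.20, 4.06, 4.08 and 3.98 with inducers, a difference of -0.58 (SE 0.12). Cmtm8, a membrane protein linked to the turnover of the EGF receptor, read 6.40 and 6.35 untreated and 5.45, 5.85, 5.86 and 5.78 with inducers, a difference of -0.64 (SE 0.14). Pla2g5, a secreted phospholipase, differed by -0.52 (SE 0.12), with inducer arrays from 4.64 to 4.78 and untreated arrays at 5.36 and 5.12. The 4OHT minus Shld1 differences in these 4 genes were -0.23 for Stc2, 0.10 for Ddc, -0.17 for Cmtm8 and -0.11 for Pla2g5 (SE 0.14 to 0.16). The zinc finger gene Zfp61 differed by -0.50 (SE 0.12), the predicted gene Gm4779 by -0.53 (SE 0.12) and Prdm9, the histone methyltransferase that places meiotic recombination, by -0.62 (SE 0.16) with its inducer mean below background. The 21 genes chosen by rank or gap, Mir194-1 and Snora69 included, stayed separated after quantile normalization or centring on the 75th percentile. They were chosen as separated with a small p or a wide gap, so this is no independent support. Among all separated probe sets, 974 of 1294 higher and 1110 of 1494 lower ones stayed so after quantile normalization. After centring, 1122 higher and 916 lower ones did.

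Hypoxia and glycolysis genes mostly had lower signals with inducers. Cells short of oxygen stabilise the factor HIF1, which turns on glucose transport, glycolysis and angiogenic signals through promoter elements with the core ACGTG. Of 27 measured genes, 24 had a lower mean with inducers, and 14 were lower on all 4 inducer arrays (51.9%), where 6.91% of all genes were; Car9 was the 1 separated higher. No member passed the test (0 called by limma after Benjamini-Hochberg adjustment over all probe sets), and 4 of the 27 had an unadjusted p under 0.05 (14.8%), against 4.02% of all genes. The median difference was -0.19, against -0.01 over all genes. Earlier results of these arrays had already given lower medians of such genes with each agent, so this count is no independent support.

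Relative to untreated, the list averaged -0.40 and -0.13 on the 4OHT arrays, -0.12 and -0.13 with Shld1, and 0.01 and -0.01 on the single untreated arrays. The largest shift was on 4OHT replicate 1, a narrower array. After quantile normalization the means were -0.35, -0.13, -0.13 and -0.04, and 11 of the 14 genes stayed separated. With both narrower arrays left out, 15 of 27 genes were lower on both remaining inducer arrays (55.6%), where 16.2% of all genes were, and the median was -0.12. These genes are bright, with a median signal of 7.74. In the brightest bin by signal, which holds this value, 11.1% of probe sets were separated lower on the deposited values.

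Among the regulators and signals of this list, Ankrd37, a HIF1 target with ankyrin repeats, read 5.89 and 5.82 untreated, 5.38 and 5.68 with 4OHT, and 5.40 and 5.40 with Shld1, a difference of -0.39 (SE 0.13). Ndrg1, a stress-responsive gene, read 5.66 and 5.48 untreated, 4.95 and 5.22 with 4OHT, and 5.33 and 5.26 with Shld1, a difference of -0.38 (SE 0.14). Vegfa, the main growth factor of blood vessels, read 7.44 and 7.56 untreated, 7.03 and 7.14 with 4OHT, and 7.29 and 7.25 with Shld1, a difference of -0.32 (SE 0.12). In all 3 genes the groups did not overlap and the nearest arrays were 0.14 to 0.15 apart. Egln3, the oxygen sensor that marks HIF1 for degradation, differed by -0.45 (SE 0.22), and P4ha1, a collagen prolyl hydroxylase, by -0.45 (SE 0.18). Ero1a, an oxidase of the endoplasmic reticulum, differed by -0.30 (SE 0.14). Ddit4, an inhibitor of mTORC1, read 7.59 and 7.55 untreated, 6.98 and 7.10 with 4OHT, and 7.54 and 7.51 with Shld1. Only the 4OHT arrays of this gene lay far from untreated. Bnip3, a mitophagy receptor, was separated on 1 of its 2 probe sets, which read 8.58 and 8.59 untreated, 7.25 and 8.11 with 4OHT, and 8.11 and 8.50 with Shld1. The brighter probe set, which stands for Bnip3 in the list, overlapped. It read 8.86 and 8.80 untreated, 7.53 and 8.38 with 4OHT, and 8.36 and 8.82 with Shld1.

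Of the glycolytic enzymes and transporters, Pfkp and Pfkl, subunits of phosphofructokinase, differed by -0.33 (SE 0.16) and -0.31 (SE 0.16), and triose phosphate isomerase Tpi1 by -0.28 (SE 0.13). Aldolase Aldoa differed by -0.22 (SE 0.12), the glucose transporter Slc2a1 by -0.19 (SE 0.12) and lactate dehydrogenase Ldha by -0.15 (SE 0.13). These 6 genes and Bnip3l (-0.11, SE 0.11) were separated. Not separated were Pgk1 (-0.12), Hk2 (-0.10), Pgam1 (-0.10) and Pdk1 (-0.05), and Hk1, the constitutive hexokinase, differed by 0.13 (SE 0.16). Car9, a carbonic anhydrase and textbook HIF1 target, differed by 0.25 (SE 0.14) at a signal below background.

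**Figure D4:**
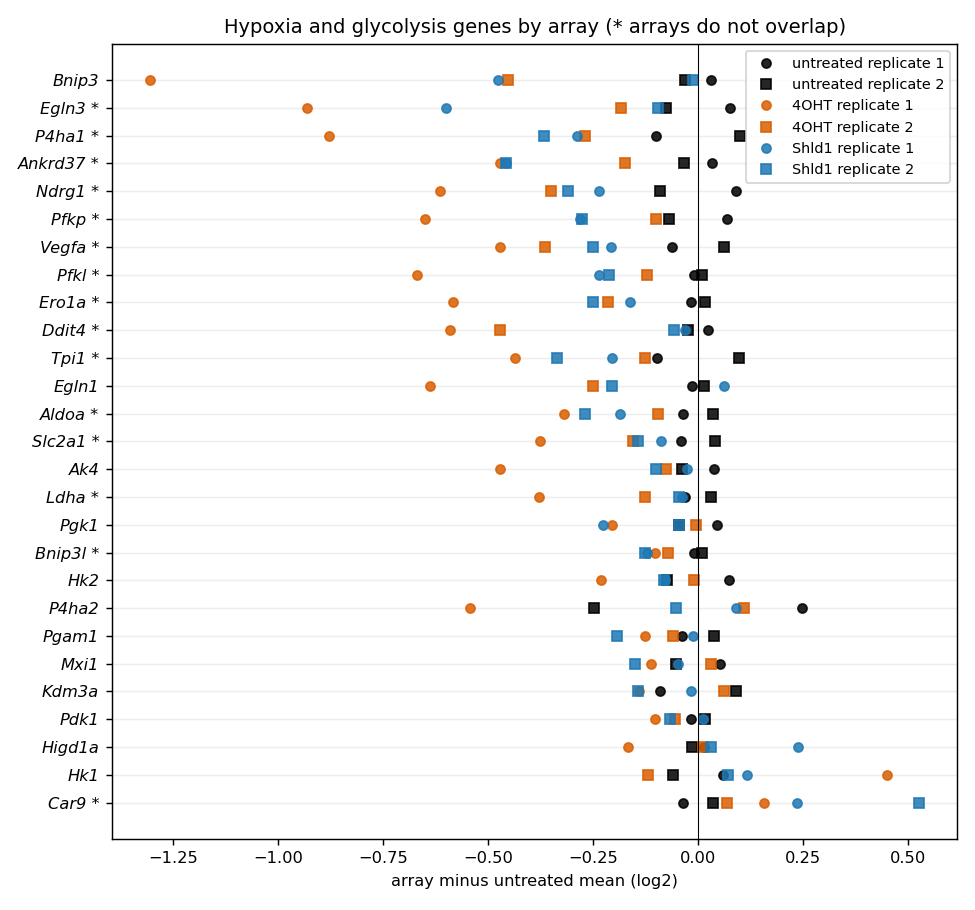
Each row is 1 of the 27 hypoxia and glycolysis genes and each point 1 array, plotted as its log2 difference from the untreated mean of that gene; colours and symbols mark groups and replicates, and an asterisk marks the 15 genes whose inducer arrays did not overlap the untreated arrays. Most coloured points lie left of the black ones, with 4OHT replicate 1 farthest for most genes, and Car9 is the separated gene on the right.

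Promoter stretches of 4 separated genes are shown because HIF1 is known to bind the core named above. RefSeq promoter windows of build GRCm38.p6, from 250 bases before to 50 after each start site, were matched by symbol for 25 of the 27 genes and searched for ACGTG on both strands, the reverse complement being CACGT. In CACGTG the matches on the strands overlap. The core was in 6447 of 32851 promoter windows in the table (19.6%). At least 1 window with the core was found for 20 of the 25 genes (80%), against 5886 of 27025 genes (21.8%) with any promoter there. Of the 12 matched genes that were separated lower, 9 held it (75%), and of the other 13, 11 did (84.6%). A match is only a run of letters and not a tested site. The list holds hypoxia and glycolysis genes, which HIF1 is known to turn on, so its share describes the list and not these arrays. In these 4 stretches upstream of the start site, 5′ to 3′ on the gene's strand, capitals mark the core or its reverse complement. They lie at chr8:45999851-45999935 (minus strand, Ankrd37), chr10:59323211-59323295 (plus, P4ha1), chr14:45318591-45318675 (minus, Ero1a) and chr7:46845719-46845803 (plus, Ldha).
Ankrd37: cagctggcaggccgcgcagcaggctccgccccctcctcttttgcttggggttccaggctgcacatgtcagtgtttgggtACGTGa
P4ha1: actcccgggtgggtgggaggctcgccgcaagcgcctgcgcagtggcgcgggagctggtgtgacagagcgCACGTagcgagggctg
Ero1a: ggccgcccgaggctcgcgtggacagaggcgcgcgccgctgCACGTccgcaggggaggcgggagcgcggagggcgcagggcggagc
Ldha: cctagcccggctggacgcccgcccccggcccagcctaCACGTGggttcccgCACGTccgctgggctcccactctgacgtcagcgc

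Small nucleolar RNAs, which guide chemical modification of ribosomal and spliceosomal RNAs, had a lower mean with inducers for 45 of 54 members, with a median difference of -0.18. On all 4 inducer arrays 12 were lower (22.2%, against 6.91% of all genes) and 0 higher. In bin 7 by signal, which holds the median signal of the list (5.98), 9.04% of probe sets were separated lower. Snora69 read 4.89 and 5.08 untreated, 3.92 and 4.43 with 4OHT, and 4.54 and 4.05 with Shld1, a difference of -0.76 (SE 0.18). Snord53 differed by -0.88 (SE 0.22) and Snora75 by -0.45 (SE 0.14). The list as a whole was not lower on every inducer array: it averaged -0.35 and -0.16 with 4OHT, -0.36 on Shld1 replicate 2 and 0.09 on Shld1 replicate 1. With both narrower arrays left out the median was -0.05. In that setting 15 were lower on both remaining inducer arrays (27.8%, against 16.2% of all genes) and 4 higher (7.41%, against 15.1%). The number lower on all 4 inducer arrays was 9 after quantile normalization, and 9 with 1 higher after centring on the 75th percentile.

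MicroRNA precursor genes were mostly dim. Of 300, 189 had a higher mean with inducers and 19 were higher on all 4 inducer arrays (6.33%, against 5.92% of all genes), while 6 were lower on all 4 (2%, against 6.91%). After quantile normalization 12 were lower (4%). Their median signal was 2.86, below background, and their median difference was 0.06, or -0.02 with the narrower arrays left out. Mir194-1 was the brightest of the 3 with the smallest p. It read 4.54 and 4.75 untreated, 5.13 and 5.04 with 4OHT, and 5.46 and 5.52 with Shld1, a difference of 0.64 (SE 0.16), and the Shld1 arrays lay above the 4OHT arrays. Mir425 differed by 0.48 (SE 0.14), and Mir192, the neighbour of the other miR-194 gene, by -0.40 (SE 0.13) below background. The probe sets report the precursor gene, not the mature microRNA. Their 5′ arm products, from RefSeq (GRCm38.p6), are shown to set the members apart by seed, bases 2 to 8, which is in capitals and differs in all 3. They lie on the plus strand at chr1:185313325-185313346, chr9:108568789-108568811 and chr19:6264857-6264877.
miR-194-5p: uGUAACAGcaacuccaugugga
miR-425-5p: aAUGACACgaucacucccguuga
miR-192-5p: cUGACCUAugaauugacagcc

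Markers of other cell types were examined as lists. Of 23 neural and ectoderm markers, 16 had a higher mean with inducers, and 7 were higher on all 4 arrays (30.4%, against 5.92% of all genes), 5 of them above background. Beside Nova2, Sox10 and Tfap2a these were Krt14 (0.43, SE 0.14), Sox9 (0.39, SE 0.14), Tfap2b (0.29, SE 0.13) and Dcx (0.18, SE 0.12). Tfap2b and Dcx were not above background, and Tfap2a was above it only with inducers. Nova2, Sox10 and Tfap2a had already been picked by p in these arrays, so the count is no independent support. Ncam1 (-0.29, SE 0.12) and Pax6 (-0.14, SE 0.11) were separated lower. The median difference of the list was 0.18, and it averaged 0.23 and 0.07 with 4OHT and 0.14 and 0.23 with Shld1. The summed level of the list, dominated by its bright members, ran from 9.64 to 9.77 on the untreated arrays and from 9.54 to 9.74 with inducers, so it overlapped. The list is dim, with a median signal of 4.05. In bin 5 by signal, which holds this value, 7.34% of probe sets were separated higher. Without the dimmest 40% of probe sets the median was 0.02.

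Of 19 endoderm markers, 4 were separated higher (21.1%) and 2 lower (10.5%), against 5.92% and 6.91% of all genes. Of 20 mesoderm markers, 2 were separated higher (10%) and 0 lower. Of 19 fibroblast markers, 4 were separated higher (21.1%), all of them below background, and 0 lower. There were no separated genes among 15 trophoblast and 8 blood cell markers. The medians of these 5 lists ran from -0.01 to 0.05. Defining genes of trophoblast (Cdx2, Elf5, Gata3) and of blood (Ptprc, Itgam, Csf1r) were not above background in either group.

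Of 21 estrogen response genes, 16 had a lower mean and 3 were separated in each direction (14.3% each, against 5.92% higher and 6.91% lower of all genes), with a median of -0.07. Beside Stc2, Igfbp4, which encodes a binding protein of insulin-like growth factors, read 5.16 and 5.18 untreated, 4.62 and 4.67 with 4OHT, and 4.49 and 4.96 with Shld1, a difference of -0.48 (SE 0.14). Myc, the growth-promoting transcription factor, differed by 0.43 (SE 0.14) and was higher on all 4 inducer arrays. FK506-binding protein and calcineurin genes had 2 of 23 separated lower (8.7%), Ppp3ca and Ppp3cb, and a median of -0.07. After quantile normalization 4 were lower and 1 higher. LXR targets had 1 of 13 separated higher (7.69%), the cholesterol exporter Abca1, whose pooled difference of 0.59 (SE 0.26) comprised 1.00 with 4OHT and 0.17 with Shld1, which share the untreated arrays. In cholesterol synthesis 19 of 20 genes had a lower mean, at a median of -0.18, and 7 were separated lower (35%, against 6.91% of all genes). The number lower was 4 after quantile normalization and 5 with centring on the 75th percentile. Ebp, a sterol isomerase that also binds tamoxifen-like drugs, was the 1 separated higher, at 0.28 (SE 0.14). The 4OHT arrays had list means of -0.36 and -0.22, and the Shld1 arrays 0.02 and -0.12. Hsd17b7 and Sc5d, enzymes of the late pathway, differed by -0.38 (SE 0.13) and -0.35 (SE 0.15).

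Among stress lists, the genes that answer unfolded protein or lack of amino acids had a lower mean in 25 of 28 cases, with 5 separated lower (17.9%, against 6.91% of all genes) and a median of -0.10. The stress transcription factor gene Ddit3 differed by -0.47 (SE 0.15) and Chac1, which degrades glutathione, by -0.33 (SE 0.14). Shld1 replicate 1 did not share this, with a list mean of 0.01 against -0.21, -0.17 and -0.19 on the other inducer arrays. In G2 and M phase 20 of 22 genes had a lower mean, with 3 separated lower (13.6%) and a median of -0.10. After quantile normalization 1 was separated lower and the median was -0.05. The list mean on Shld1 replicate 1 was 0.02. Of 28 lysosome genes, 24 had a lower mean and 3 were separated lower (10.7%), or 1 after quantile normalization or centring on the 75th percentile. Of 24 cytosolic chaperones, 6 were separated lower (25%) and 1 higher (4.17%), at a median of -0.07, but 2 in each direction after quantile normalization. The unfolded protein, G2 and M phase, lysosome and chaperone lists are bright, with median signals from 7.28 to 9.43. In bins 9 and 10 by signal, which hold these values, 10.9% and 11.1% of probe sets were separated lower. Cytosolic ribosomal proteins (61 genes), respiratory chain subunits (81) and proteasome subunits (39) had medians of -0.00, -0.04 and -0.03. For S phase genes, p53 targets, NRF2 targets and replication-dependent histones the medians were -0.03, -0.06, -0.03 and -0.04. Of 17 p53 targets 3 were separated lower (17.6%, against 6.91% of all genes) and 0 higher. These counts were the same after quantile normalization or centring on the 75th percentile. With both narrower arrays left out, 3 of the 17 were again lower (17.6%), but so were 16.2% of all genes. The list's median in that setting was -0.01, so the excess over all genes was not kept there. Its median signal of 6.58 lies in bin 8, where probe sets were more often separated lower than over the whole signal range. Separated higher were 1 of 23 S phase genes (4.35%), 0 of 20 NRF2 targets and 1 of 30 histones (3.33%). Lower were 0 S phase genes, 1 NRF2 target (5%) and 2 histones (6.67%).

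**Figure D5:**
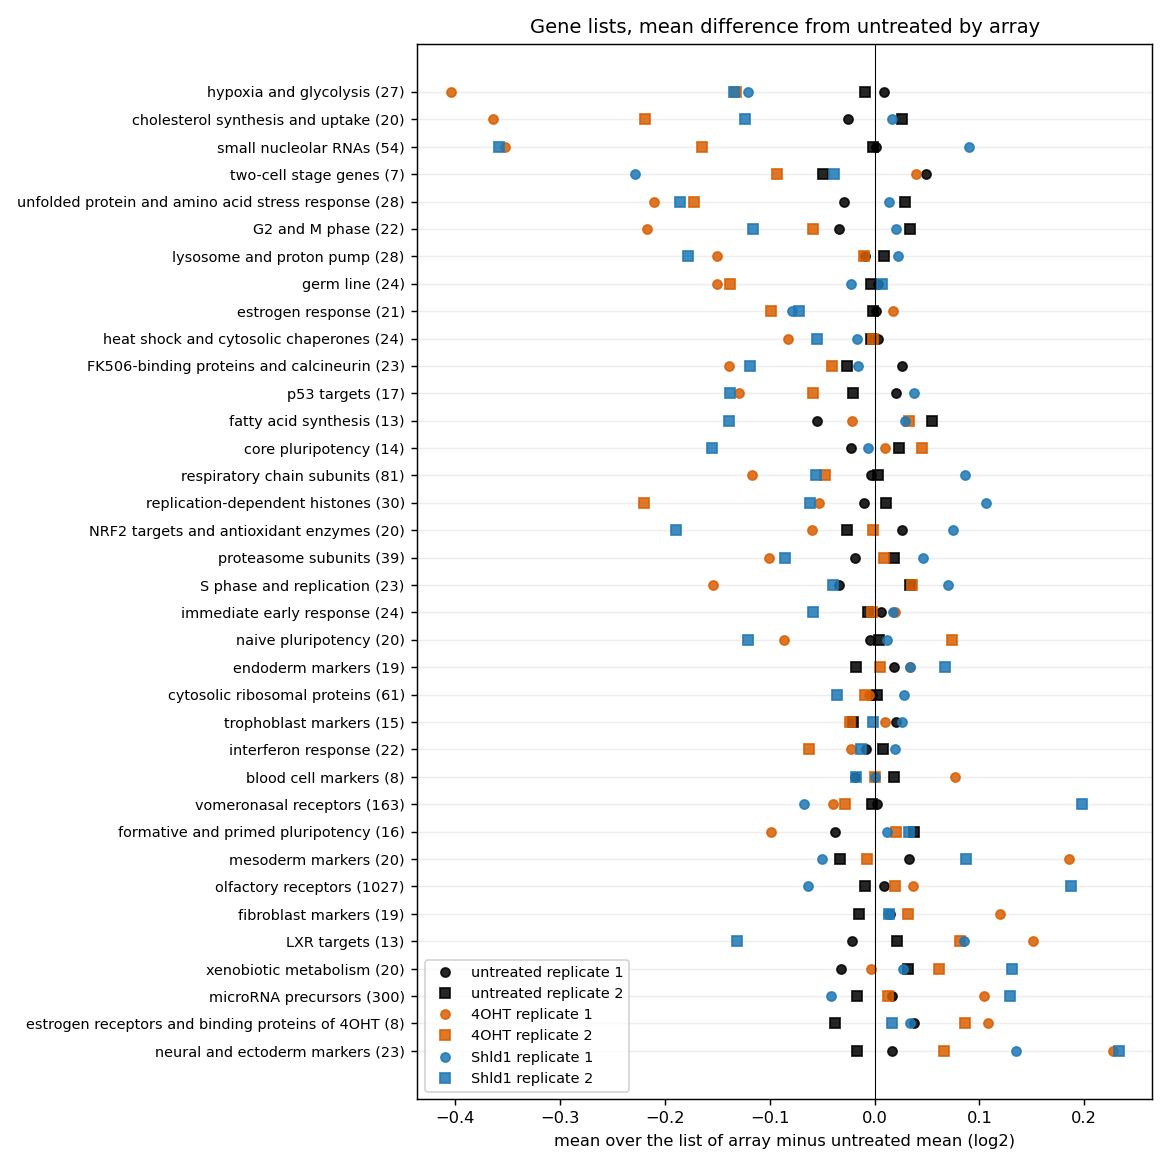
Each row is a gene list with its number of measured genes, ordered by median difference, and each point is the mean over the list of the log2 difference of 1 array from the untreated mean; black, orange and blue mark untreated, 4OHT and Shld1. Hypoxia and glycolysis genes at the top, with -0.40, -0.13, -0.12 and -0.13, and neural and ectoderm markers at the bottom, with 0.23, 0.07, 0.14 and 0.23, have all 4 inducer arrays on 1 side of both untreated arrays.

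The pluripotency lists differed in how many genes were separated, where 5.92% of all genes were higher and 6.91% lower. Bright probe sets were more often lower, at 10.9% in bin 9 by signal, which holds the naive list's median signal of 7.44. Of 14 core genes 0 were separated, and the median was -0.05. With both narrower arrays left out, 3 core genes were higher (21.4%) and 1 lower (7.14%), against 15.1% and 16.2% of all genes. Of 20 naive genes 1 was separated higher (5%) and 3 lower (15%), which became 3 and 2 after quantile normalization and 3 and 1 with centring on the 75th percentile. The 4 on the deposited values were Manba, a lysosomal mannosidase, higher (0.24, SE 0.13), and Dppa3, Stat3 and Nr5a2 lower. Dppa3, which protects maternal DNA methylation marks, differed by -0.40 (SE 0.15), and both of its probe sets were separated lower. Both were dim: the brighter averaged 3.94 untreated and 3.54 with inducers, the latter below background. The other averaged 2.90 over all arrays, also below background. Gbx2, a STAT3 target, differed by 0.40 (SE 0.16) but its arrays overlapped. Among 16 formative and primed genes, 3 were separated higher (18.8%) and 4 lower (25%), and 2 and 3 after quantile normalization or centring. The median of this list was 0.02. Lef1, the nuclear partner of beta-catenin, read 6.62 and 6.76 untreated, 5.88 and 6.28 with 4OHT, and 6.34 and 6.39 with Shld1, a difference of -0.47 (SE 0.16). Of 24 germ line genes, 5 were separated lower (20.8%) and 3 higher (12.5%), Stra8, the retinoic acid target that opens meiosis, among the lower at -0.36 (SE 0.12). Of 24 immediate early genes, 2 were separated higher (8.33%), Ccn2 and Myc, and 2 lower (8.33%), at a median of -0.02. The lower ones were Ier3, at -0.49 (SE 0.14), and Spry2, a feedback inhibitor of FGF signalling, at -0.33 (SE 0.14). Fatty acid synthesis, interferon response, xenobiotic metabolism and 2-cell stage genes had medians of -0.05, 0.01, 0.05 and -0.14. The 2-cell stage list held 7 measured genes, with a median signal of 3.17, below background, and 0 were separated. Its median ran from -0.15 to 0.017 with 1 array left out.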

How the data were processed

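The authors deposited 1 value per probe set and array on a log2 scale, as read from the range of values; background correction, summarization and genome build are not given in the sources used here, and limma 3.14 appears in the submitters' processing notes with no role. Of 35556 probe sets, 21789 had 1 gene symbol in the platform annotation, 1621 several and 12146 none; 21698 were updated by Entrez identifier. The values were used as deposited. Limma 3.58.1 in R 4.3.3 (lmFit, eBayes, two-sided, 4 residual degrees of freedom plus 5.89 from moderation) compared 4 inducer arrays with 2 untreated arrays, adjusted by Benjamini-Hochberg over 21789 probe sets; the code was tested on simulated data. The median SE was 0.139 and the median half-width of a 95% interval 0.309, and the number of arrays limits this precision. A probe set was separated when all inducer arrays lay on 1 side of both untreated arrays. For the 36 gene lists, the brightest probe set stood for a gene (19938 genes). The members and lists were chosen with earlier results of these data known.

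Named genes were, per direction, the 10 past the threshold, or else of smallest p among separated probe sets above background in at least 1 group, the 5 of largest gap, Pou5f1, Sox2, Nanog, Klf4, Esr1, Esr2 and Fkbp1a, and up to 3 members per list by p; other list members were named after their values were seen. Alternatives were a mean per agent, quantile normalization, centring, other probe set choices, an intensity trend, array weights, a replicate block, leaving out arrays and a minimum of 1.5-fold.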

Additional observations from a re-analysis of the deposited data

Results flagged for a closer look

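Within the 4 inducer arrays, 1 array stood apart from the other 3 by more than Dixon's 95% limit (its gap as a share of the range, given in parentheses) in 12 of 162 genes and lists examined; chance gives about 1 in 20, and genes of a list are not independent. Shld1 replicate 1 was high for Lin28a (0.843), Cth (0.883) and Aurka (0.876), low for Usp17lc (0.922), and high for the list of unfolded protein and amino acid stress genes (0.830). 4OHT replicate 2 was high for Ankrd37 (0.95), at 5.68 against 5.38 to 5.40. 4OHT replicate 1 was high for H2bc8 (0.851) and low for the formative and primed pluripotency list (0.843) and the hypoxia and glycolysis list (0.955). Shld1 replicate 2 was low for Cryab (0.835) and H3c15 (0.962) and high for the vomeronasal receptors (0.854). No gene named above differed between 4OHT and Shld1 after adjustment (limma, 0 calls).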

How the results depend on the processing

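Limma called 0 probe sets under every alternative run. The number with unadjusted p under 0.05 was 880 and moved to 1379 with every probe set, 516 without the dimmest 40%, 1385 with array weights and 1 with a minimum of 1.5-fold, and ran from 527 to 1392 with 1 array left out. The number separated was 2788 (1294 higher, 1494 lower). It was 4499 (2231 and 2268) with every probe set, 1703 (524 higher) without the dimmest 40%, 6745 (3276 and 3469) without both narrower arrays, and 3831 to 7693 (1820 to 3778 higher, 2011 to 3915 lower) with 1 array left out, since fewer arrays must then be apart. It was 732, 37 and 2 at gaps over 0.1, 0.3 and 0.5. With the replicate number as a block, 735 probe sets had an unadjusted p under 0.05 and 0 were called. The replicate deviations of the groups correlated at 0.05, -0.08 and -0.19. With 1 difference per group, this cannot show whether arrays of the same number had a culture or day in common.

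The sign of the difference turned in these cases. Pou5f1 was at 0.00063 with centring and 0.017 without both narrower arrays, where Nanog was at 0.055, Esr2 at -0.13, Fkbp1a at 0.023, Gins1 at 0.015 and Ptprc at -0.029. Fkbp1a was at 0.033 with quantile normalization and 0.032 with centring. With 1 array left out, ranges were -0.074 to 0.0047 for Pou5f1, -0.025 to 0.060 for Sox2, -0.11 to 0.0096 for Nanog, -0.021 to 0.14 for Esr1, -0.038 to 0.039 for Fkbp1a, -0.26 to 0.016 for Rrm1, -0.031 to 0.66 for Krt7, -0.0045 to 0.16 for Ptprc, -0.016 to 0.17 for Adgre1, -0.013 to 0.16 for Cd3e and -0.54 to 0.017 for Tcstv3; the cause was not tested. The hypoxia and glycolysis median stayed between -0.23 and -0.13 with 1 array left out.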

Other observations

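Outside the named probe sets, 1711 of 13767 probe sets without a single gene symbol were separated (12.4%), close to the 12.8% of those with 1 symbol. Of 999 genes with several probe sets, 256 had a separated one, 28 had all separated in 1 direction and 17 had probe sets separated in opposite directions.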
